A study of Mus musculus with 51 samples.

Results

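Penk, Nmu, Pnmt, Spock1, Ctsr, Clca1 and Rhox5 are 7 protein-coding genes, out of 52636 genes in the deposited tables, that were chosen by their measured levels, being much higher in mature luminal (ML) cells of an Esr1 mutant than in ML cells of WT mice. They include 2 precursors of secreted peptides, the enzyme that makes adrenaline, a matrix proteoglycan, a placental cathepsin, a secreted goblet cell protein and a reproductive homeobox factor. The ML levels chose these genes, so every ML value below is a description with no test. Tests were made only in Basal, LP and N libraries, which the choice did not use. The labels do not say whether same-numbered libraries of different populations came from the same mice. Over 13809 genes, deviations from the group mean correlated at 0.109 to 0.585 between same-numbered ML and LP or Basal libraries. Between ML and N libraries they correlated at 0.0977 to 0.553. The tested libraries were therefore not fully independent of the choice, and the tests below carry this limit.

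The study asked what giredestrant, an oral antagonist and degrader of the oestrogen receptor ERα, does to mammary glands with and without Esr1 mutations. The groups were D542G mice, Y541S mice and WT mice, all 6 months old, all carrying pellets of both E2 (oestradiol) and P4 (progesterone), and all dosed daily for 4 days with giredestrant (30 mg/kg by mouth) or with vehicle (MCT). Flow cytometry gave ML, luminal progenitor (LP), Basal and N cells, where N is the gate that the labels set apart from the others without naming its surface markers. ML and Basal cells were profiled in all 3 genotypes under giredestrant and under vehicle, LP cells in all 3 genotypes under giredestrant, and N cells in D542G and Y541S mice under giredestrant. This makes 17 groups of 3 libraries, which the series calls biological replicates. D542G and Y541S name amino acid changes in the receptor itself. The sources used here do not give the zygosity, the strain or any driver of the alleles.

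ERα is a hormone-activated transcription factor made by ML cells, the hormone-sensing layer of the mammary gland. Both substitutions lie in its ligand-binding domain and are mouse counterparts of changes found in endocrine-resistant breast tumours, where the receptor is active with little or no hormone. Penk, Nmu and Pnmt are best known from brain, gut and adrenal medulla, Ctsr from rodent placenta, Clca1 from mucus-secreting epithelium, and Rhox5 from testis, epididymis, ovary and placenta.

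Levels are in CPM, the count of a gene relative to the total of its library, scaled by TMM factors over all 51 libraries, which held 21397339 to 60128473 gene counts each and reads for 18949 to 22121 genes. Esr1 itself was at 67.9 to 94.7 CPM in D542G ML and 70.2 to 103 CPM in Y541S ML cells with vehicle, against 257 to 320.2 CPM in WT ML cells with vehicle. The summed CPM of 9 mature luminal markers followed the same order, at 1341 to 2064 in D542G, 1669 to 3418 in Y541S and 5800.1 to 7034 in WT. None of the 9 was at 0 in any of these groups. With giredestrant, labelled LP cells of D542G mice carried about as much of these markers (1442 to 2257) as labelled ML cells of the same genotype (730.0 to 2289.6), so the population names are used below as the labels give them. Basal markers, 8 in number, summed to 879 CPM in D542G vehicle ML library 1, against 165 and 207 in the other libraries of that group. Bulk libraries cannot tell more expressing cells from more RNA in each cell.

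The RefSeq promoter table matched 4 of the 7 genes, Nmu, Spock1, Ctsr and Rhox5, and had no entry for Penk, Pnmt or Clca1. The start regions of Nmu and Spock1 are shown because both genes were near 0 in WT ML cells and high in both mutants, and the changed protein binds DNA. The runs are 250 bases upstream of the RefSeq transcript start on GRCm38.p6, 5′ to 3′ on the minus strand that both genes use, chr5:76363778-76364027 for Nmu and chr13:57908333-57908582 for Spock1. Capitals mark GGTCA, the core letters of an oestrogen receptor site, and TGANTCA, searched on both strands. TGANTCA is looser than the AP-1 motif, which has C or G at the free base N.
Nmu: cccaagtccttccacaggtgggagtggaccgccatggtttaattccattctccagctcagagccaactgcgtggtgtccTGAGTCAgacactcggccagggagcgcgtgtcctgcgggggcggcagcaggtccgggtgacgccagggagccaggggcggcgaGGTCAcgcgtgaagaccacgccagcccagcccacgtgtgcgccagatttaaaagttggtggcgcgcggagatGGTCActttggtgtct
Spock1: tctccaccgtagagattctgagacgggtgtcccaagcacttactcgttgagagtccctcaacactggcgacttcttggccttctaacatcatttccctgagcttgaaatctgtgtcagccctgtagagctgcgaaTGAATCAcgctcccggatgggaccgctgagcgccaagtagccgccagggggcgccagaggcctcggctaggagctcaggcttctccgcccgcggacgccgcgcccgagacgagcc
The Nmu window held GGTCA 2 times, first bases 88 and 16 bases before the start, and TGANTCA once, 171 bases before it. In the Spock1 window TGANTCA began 115 bases before the start, with A at the free base and so outside the stricter AP-1 motif. GGTCA was not found there. Across 32851 promoters of the same length, GGTCA occurred in 35.2% and TGANTCA in 6.75%. The full palindromic element, which is GGTCA, 3 free bases and then TGACC, was present in 0.0639% of promoters and in neither window. The Ctsr and Rhox5 windows, not printed, held none of the 3 motifs, and the Rhox5 window lies 50234 bp before the start of the gene given below. With 19 and 20 CpG dinucleotides, Nmu and Spock1 lay above the median promoter, which has 6. Matches are letters in a window and show no binding.

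Penk lies on chromosome 4 (4133531 to 4138819, minus strand, GRCm38) and encodes proenkephalin, which is cut into opioid enkephalin peptides. In D542G ML cells with vehicle it was at 228, 31.0 and 69.1 CPM, in Y541S at 86.5, 1442 and 64.1 CPM, and in WT at 1.05, 7.16 and 1.18 CPM. Every mutant library lay above every WT library, and Y541S library 2 stood far above the other 2 of its group. With giredestrant Penk was at 44.3, 25.6 and 26.8 CPM in D542G, 193, 567 and 54.0 CPM in Y541S, and 0.0831, 0.490 and 2.17 CPM in WT ML cells. Both mutants remained clear of WT. A lncRNA gene, A830012C17Rik, overlaps 9.43% of the Penk span, and reads there cannot be assigned to a strand.

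Nmu (chromosome 5, 76333495 to 76363788, minus strand) encodes neuromedin U, a peptide that acts on smooth muscle, feeding circuits and immune cells through Nmur1 and Nmur2. It was at 13.7, 23.4 and 9.28 CPM in D542G ML cells with vehicle, at 4.51, 23.6 and 4.39 CPM in Y541S, and at 0.251, 0.421 and 0.0394 CPM in WT. The WT values rest on 16 counts in all. With giredestrant Nmu was at 2.72, 0.180 and 0.390 CPM in D542G, 6.36, 2.91 and 1.14 CPM in Y541S, and 0.111, 0.245 and 0.0973 CPM in WT. Y541S stayed above WT in all libraries, while D542G library 2 fell within the WT range. The gene 4930432L08Rik overlaps 27.7% of the Nmu span.

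Pnmt (chromosome 11, 98386450 to 98388181, plus strand) encodes phenylethanolamine N-methyltransferase, which turns noradrenaline into adrenaline in the adrenal medulla. With vehicle it was at 123, 59.4 and 12.7 CPM in D542G ML cells, 96.4, 80.5 and 6.03 CPM in Y541S, and 0.167, 0.327 and 0 CPM in WT. In both mutants library 3 was the lowest, and still above every WT library. With giredestrant the levels were 9.11, 3.92 and 24.9 CPM in D542G, 201, 61.4 and 0.0458 CPM in Y541S, and 0.0554, 0.276 and 1.27 CPM in WT. Y541S library 3 held 2 Pnmt counts, below all 3 WT libraries, so Y541S and WT overlapped under giredestrant.

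Spock1 (chromosome 13, 57421195 to 57908332, minus strand) encodes testican-1, a secreted proteoglycan of the SPARC family. Its vehicle levels in ML cells were 218, 121 and 19.6 CPM in D542G, 15.2, 110.5 and 12.1 CPM in Y541S, and 0.0836, 0 and 0.236 CPM in WT, where the 3 libraries held 8 counts together. Giredestrant groups were at 11.8, 3.92 and 4.61 CPM in D542G, 48.3, 49.1 and 0.595 CPM in Y541S, and 0.305, 0.123 and 1.31 CPM in WT. D542G lay above WT in every library. Y541S library 3 again fell inside the WT range.

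Ctsr (chromosome 13, 61159204 to 61164256, minus strand) encodes cathepsin R, a cysteine protease of a rodent gene cluster active in placenta. It was high in D542G and not in Y541S. Levels with vehicle were 12.9, 24.3 and 14.8 CPM in D542G ML cells, against 0.0939, 0.230 and 0.119 CPM in Y541S and 0.0836, 0.281 and 0.157 CPM in WT. With giredestrant D542G was at 269, 12.4 and 5.81 CPM, Y541S at 1.08, 0.356 and 0.847 CPM, and WT at 1.69, 0.398 and 4.99 CPM. Y541S ML cells overlapped WT under both treatments, and all D542G libraries were above both. Ctsr has close relatives in its cluster, and the sources used here do not say how reads shared between them were assigned.

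Clca1 (chromosome 3, 145003817 to 145032776, minus strand) encodes a secreted regulator of calcium-activated chloride channels made by goblet cells. With vehicle it was at 7.82, 3.50 and 1.76 CPM in D542G ML cells, 1.72, 134 and 7.70 CPM in Y541S, and 0, 0 and 0.0394 CPM in WT, the last a single count. With giredestrant D542G was at 82.3, 15.9 and 3.12 CPM, Y541S at 145, 45.4 and 72.4 CPM, and WT at 5.84, 2.51 and 2.09 CPM. All 3 WT libraries with giredestrant were above all 3 with vehicle. D542G library 3 lay within the WT range under giredestrant, and Y541S did not overlap WT.

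Rhox5 (chromosome X, 37804842 to 37808876, plus strand) encodes a homeobox transcription factor of the reproductive Rhox cluster. Its levels in vehicle ML cells were 45.8, 43.0 and 4.05 CPM in D542G, 6.16, 123 and 9.37 CPM in Y541S, and 0.502, 0.889 and 1.38 CPM in WT. With giredestrant they were 26.9, 12.5 and 26.3 CPM in D542G, 149.5, 165 and 3.87 CPM in Y541S, and 0.0554, 0.276 and 0.560 CPM in WT. Neither mutant overlapped WT under either treatment.

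**Figure D1:**
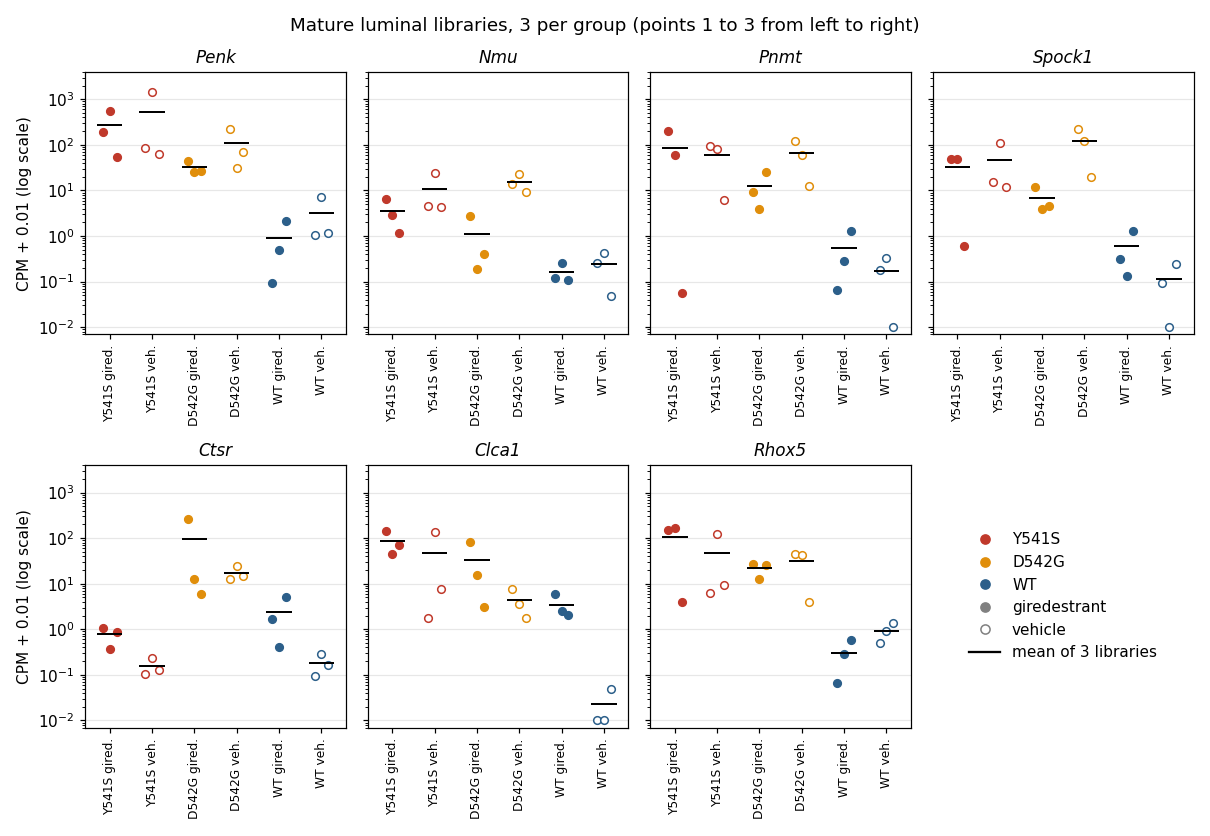
CPM + 0.01 on a log axis in ML cells of Y541S, D542G and WT mice with giredestrant (filled) or vehicle (open). Points are libraries 1 to 3 of each group and bars their means; with vehicle, Penk lay between 31.0 and 1442 CPM in mutants and between 1.05 and 7.16 CPM in WT.

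Counted over the genes, with vehicle 7 of 7 had all 3 D542G ML libraries above all 3 WT libraries, where 21% of the 17181 genes compared did so. For Y541S against WT the count was 6 of 7, against 16.3% of genes, with Ctsr the one that overlapped. With giredestrant it was 5 of 7 for D542G (11.1% of genes) and 4 of 7 for Y541S (16.8% of genes). ML libraries chose these genes, so nothing is read from these counts. Under giredestrant the genes that overlapped WT were Nmu and Clca1 in D542G, and Pnmt, Spock1 and Ctsr in Y541S. With giredestrant 6 immune markers summed to 146 to 668 CPM in D542G, 76.7 to 219 in Y541S and 45.0 to 67.0 in WT. Fibroblast markers, 5 in number, summed to 135 to 838 CPM in D542G, 214 to 269.7 in Y541S and 43.6 to 83.5 in WT, and basal markers, where Y541S overlapped WT, to 480.1 to 1038 CPM in D542G, 271 to 675 in Y541S and 133 to 319 in WT. None was at 0; their part in the levels was not tested.

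Within a genotype, giredestrant and vehicle libraries mostly overlapped in ML cells. In D542G mice 2 of 7 genes, Nmu and Spock1, were lower with giredestrant in all libraries, a pattern that 18.1% of genes shared. Nmu averaged 1.10 ± 1.41 CPM with giredestrant and 15.5 ± 7.24 CPM with vehicle, and Spock1 6.77 ± 4.35 CPM with giredestrant and 119 ± 99.1 CPM with vehicle (SD, n = 3 each). In Y541S mice Ctsr alone separated, being higher with giredestrant (1 of 7, against 23% of genes), at levels near or under 1 CPM. In WT mice Ctsr and Clca1 were higher with giredestrant (2 of 7, against 26.1% of genes). The counts in all 3 genotypes lay near or under the shares of all genes. ML libraries also chose these genes, so nothing is read from the counts. WT Ctsr averaged 2.36 ± 2.37 CPM with giredestrant and 0.174 ± 0.0995 CPM with vehicle, and WT Clca1 3.48 ± 2.05 CPM with giredestrant and 0.0131 ± 0.0227 CPM with vehicle. For 2 genes the sign of the Y541S difference hung on Y541S vehicle library 2: the log2 ratio of mean CPM, giredestrant over vehicle, was −0.97 for Penk and −0.49 for Spock1 with all libraries, and 1.85 for Penk and 1.26 for Spock1 without that library.

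In LP cells, sorted from giredestrant-dosed mice only, 6 of the 7 genes were higher in Y541S than in WT, where 3.54% of 16569 genes were called and 2.43% were called higher. The test was edgeR's quasi-likelihood test with Benjamini-Hochberg adjustment over all genes of the fit, and called means an adjusted p under 0.05. Rhox5 was at 34.1, 26.4 and 5.13 CPM in Y541S LP cells, against 0, 0.551 and 0.378 CPM in WT LP cells. Its log2 ratio was 6.10 ± 1.04 (SE, n = 3 each, edgeR adjusted p = 0.0251). Clca1 was at 28.3, 9.29 and 22.5 CPM in Y541S, against 1.56, 2.05 and 2.25 CPM in WT (3.32 ± 0.63, edgeR adjusted p = 0.0300). Both genes separated the groups completely.

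Penk was at 79.9, 119.9 and 40.7 CPM in Y541S LP cells, against 2.98, 2.45 and 15.9 CPM in WT LP cells (log2 ratio 3.41 ± 0.79, edgeR adjusted p = 0.0468). Spock1 was at 20.2, 12.1 and 1.92 CPM in Y541S, against 0.831, 0.306 and 0.0252 CPM in WT (4.83 ± 1.01, edgeR adjusted p = 0.0352). Nmu was at 2.95, 0.405 and 0.798 CPM in Y541S, against 0.0804, 0.0306 and 0.0252 CPM in WT, where the 3 libraries held 5 counts (4.80 ± 1.01, edgeR adjusted p = 0.0360). The peptide and proteoglycan genes lay above WT in every Y541S library. Pnmt was at 84.9, 8.37 and 0.0684 CPM in Y541S, against 0, 0.153 and 0.0505 CPM in WT (8.82 ± 2.03, edgeR adjusted p = 0.0466). Library 3 of Y541S, with 3 Pnmt counts, fell inside the WT range, so that 5 of 7 genes separated the groups, against 15.6% of genes. Ctsr did not pass, at 0.320, 0.0213 and 1.25 CPM in Y541S and 0.268, 0.490 and 0.328 CPM in WT (edgeR adjusted p = 0.834).

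These LP calls were not stable to the loss of a library. Leaving out any WT LP library, or Y541S LP library 1 or 2, left 0 of the 7 genes past the threshold, and leaving out Y541S library 3 left 6. The log2 ratios kept their sign in all of these fits. Fibroblast markers summed to 3358 to 10213 CPM in Y541S LP cells and 198 to 394 CPM in WT LP cells, with none at 0, and basal markers to 660.3 to 4473 CPM in Y541S and 321 to 632 CPM in WT; their part in the result was not tested.

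In D542G LP cells all 7 genes lay above WT in every library, a pattern shared by 10.4% of genes, but edgeR called 0 of the 7. Only 0.0302% of genes (5 of 16569) were called in that comparison. Adjusted p ran from 0.119 for Rhox5 to 0.237 for Pnmt, all 7 had an unadjusted p under 0.05, and DESeq2 called 6, all but Pnmt. DESeq2 also called far more of all genes here than edgeR did, as the last section gives. The share of all genes with an unadjusted p under 0.05 was not taken, so nothing is read from these looser counts. The log2 ratios ran from 2.85 ± 0.77 for Penk to 6.74 ± 1.21 for Ctsr (SE, n = 3 each). Ctsr was at 83.2, 6.96 and 27.3 CPM in D542G LP cells and at 0.268, 0.490 and 0.328 CPM in WT LP cells. Penk was at 36.6, 96.0 and 27.1 CPM in D542G and at 2.98, 2.45 and 15.9 CPM in WT. Pnmt was at 3.04, 2.81 and 2.20 CPM in D542G and at 0, 0.153 and 0.0505 CPM in WT. Spock1 (7.76, 5.01 and 8.11 CPM), Clca1 (36.5, 12.4 and 7.01 CPM), Rhox5 (25.9, 25.6 and 6.88 CPM) and Nmu (1.29, 1.21 and 0.309 CPM) were likewise above the WT libraries given above. Fibroblast markers summed to 496 to 2711 CPM in D542G LP and 198 to 394 CPM in WT LP cells, and immune markers to 141 to 261 CPM in D542G and 58.3 to 68.9 CPM in WT, with none at 0; their part in the result was not tested.

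In Basal cells, the contractile outer layer, the mean of each of the 7 genes was lower in both mutants than the mean in ML cells of the same genotype and treatment. In WT mice Spock1 ran the other way, averaging 2.87 CPM in Basal and 0.580 CPM in ML cells with giredestrant, and 0.818 CPM in Basal and 0.107 CPM in ML cells with vehicle. Means of Penk (1.15 CPM in Basal, 0.913 CPM in ML) and Nmu (0.202 CPM in Basal, 0.151 CPM in ML) were also slightly higher in WT Basal cells with giredestrant, within the spread of the libraries. These levels involve the ML libraries and have no test.

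With giredestrant, Penk was higher in Basal cells of both mutants than of WT. It was at 36.6, 34.2 and 11.1 CPM in Y541S, 13.4, 21.7 and 4.04 CPM in D542G, and 0.746, 2.11 and 0.599 CPM in WT. The log2 ratio to WT was 4.54 ± 0.93 in Y541S (edgeR adjusted p = 0.00556) and 3.47 ± 0.90 in D542G (edgeR adjusted p = 0.0368; SE, n = 3 each). Rhox5 was also called in Y541S, at 5.49, 15.8 and 0.803 CPM, against 0.236, 0 and 0.0945 CPM in WT (6.02 ± 1.63, edgeR adjusted p = 0.0228). These were 2 of 7 genes called in Y541S, where 14% of genes were called, and 1 of 7 in D542G, where 4.97% were. The Y541S Penk call passed under all alternatives tried; the D542G Penk call was lost without WT Basal library 1 or 3, without D542G Basal library 1 or 2, and when all libraries other than ML were fitted together (adjusted p 0.0702). The Rhox5 call was lost without any 1 of the 3 WT libraries or without Y541S library 2 (adjusted p up to 0.0846). Pan-luminal markers, 4 in number, summed to 1412 to 2429 CPM in Y541S, 2063 to 3845 CPM in D542G and 1110.1 to 1146 CPM in WT Basal cells with giredestrant. Immune markers summed to 352 to 676 CPM in Y541S, 506 to 764 in D542G and 231 to 329 in WT, 4 pericyte markers to 193 to 321 CPM in Y541S, 161 to 323 in D542G and 102 to 131 in WT, and fibroblast markers to 1098 to 1644 CPM in Y541S, 560.1 to 902 in D542G and 472 to 816 in WT. None was at 0; their part in the result was not tested.

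Other genes pointed the same way in Basal cells with giredestrant but did not pass. Clca1 was at 4.30, 2.53 and 7.54 CPM in Y541S (adjusted p = 0.0612), 8.47, 2.38 and 1.72 CPM in D542G (adjusted p = 0.111), and 0.511, 0.0741 and 0 CPM in WT, by edgeR. Ctsr was at 20.2, 0.163 and 0.232 CPM in D542G Basal cells, and no WT Basal library with giredestrant held a count. With the WT level set at 3 counts over the group, Ctsr was at least 193-fold higher in D542G, almost wholly through library 1. Pnmt was at 7.57, 2.84 and 0.0206 CPM in Y541S, 0.830, 0.717 and 0.827 CPM in D542G, and 0.157, 0 and 0.0630 CPM in WT (edgeR adjusted p = 0.0655 in Y541S and 0.350 in D542G). Spock1, present in WT Basal cells at 3.73, 2.30 and 2.58 CPM, was at 7.02, 11.8 and 1.73 CPM in Y541S and at 3.58, 5.02 and 6.75 CPM in D542G, and both mutants overlapped WT. Rhox5 in D542G was at 3.84, 2.02 and 0.232 CPM, with library 3 inside the WT range (edgeR adjusted p = 0.142). All 3 libraries lay above WT for 4 of 7 genes in D542G (Penk, Pnmt, Ctsr and Clca1, against 12.1% of genes) and for 3 of 7 in Y541S (Penk, Clca1 and Rhox5, against 18.4%). Nmu overlapped, at 0.268, 0.101 and 0.515 CPM in Y541S, 0.262, 0.163 and 0 CPM in D542G, and 0.157, 0.259 and 0.189 CPM in WT.

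With vehicle, edgeR called 0 of the 7 genes in Basal cells of either mutant against WT, where 0.0582% of genes were called in D542G and 0.157% in Y541S. At an unadjusted p under 0.05 there were 4 in D542G and 6 in Y541S, and DESeq2 called Nmu and Spock1 in D542G and Penk, Nmu and Clca1 in Y541S. Of all genes, DESeq2 also called far more than edgeR, as the last section gives. The share of all genes at that unadjusted p was not taken, so nothing is read from these looser counts. Nmu had 0 counts in the 3 WT vehicle Basal libraries, while D542G libraries were at 0.749, 0.710 and 0.147 CPM and Y541S libraries at 0.538, 1.28 and 0.202 CPM. Against 3 counts over the WT group this is at least 17.3-fold higher in D542G and at least 21.8-fold higher in Y541S. Penk was at 38.2, 8.69 and 8.19 CPM in D542G, 16.04, 65.6 and 8.92 CPM in Y541S, and 4.65, 2.29 and 2.41 CPM in WT, with no overlap. All 3 libraries of both mutants lay above WT for Penk and Nmu, and also for Ctsr in D542G and for Spock1 in Y541S, which is 3 of 7 in each mutant, against 7.9% of genes in D542G and 11.2% in Y541S. Ctsr was at 0.456, 0.597 and 0.0209 CPM in D542G, the last a single count, and at 0 in WT. In D542G Basal cells with vehicle the 7 genes had a median of 4.46% of their ML means, and 9 mature luminal markers 12.6%. In Y541S the medians were 5.96% for 6 genes, without Ctsr, and 6.72% for the markers. The part of these markers in the result was not tested.

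Between giredestrant and vehicle in Basal cells, the counts of the 7 genes called were near or under the shares of all genes. Nothing is read from them about these genes, and a gene that did not pass may still differ. In D542G, Clca1 rose, at 8.47, 2.38 and 1.72 CPM with giredestrant against 0, 0.199 and 0 CPM with vehicle (log2 ratio 5.89 ± 1.71, edgeR adjusted p = 0.0209, 1 of 7 genes against 28.2% of genes called). This call was lost without D542G vehicle library 1 or 3 or without giredestrant library 1. In WT, Nmu was at 0.157, 0.259 and 0.189 CPM with giredestrant and at 0 in all 3 vehicle libraries, at least 6.53-fold higher (edgeR adjusted p = 0.0463, 1 of 7 against 11.1% of genes). Leaving out any 1 of these 6 libraries ended the Nmu call. In Y541S edgeR called 0 of 7, where 15.1% of genes were called, and DESeq2 and an unadjusted p under 0.05 also gave 0. For the difference of the giredestrant effect from that in WT, edgeR called 0 of 7 in D542G (0.629% of genes called) and 0 of 7 in Y541S (4.46%). An unadjusted p under 0.05 gave 2 in D542G and 1 in Y541S, and DESeq2 called Nmu in each. DESeq2 called more of all genes than edgeR here too, as the last section gives. The share of all genes at that unadjusted p was not taken, so nothing is read from these looser counts.

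**Figure D2:**
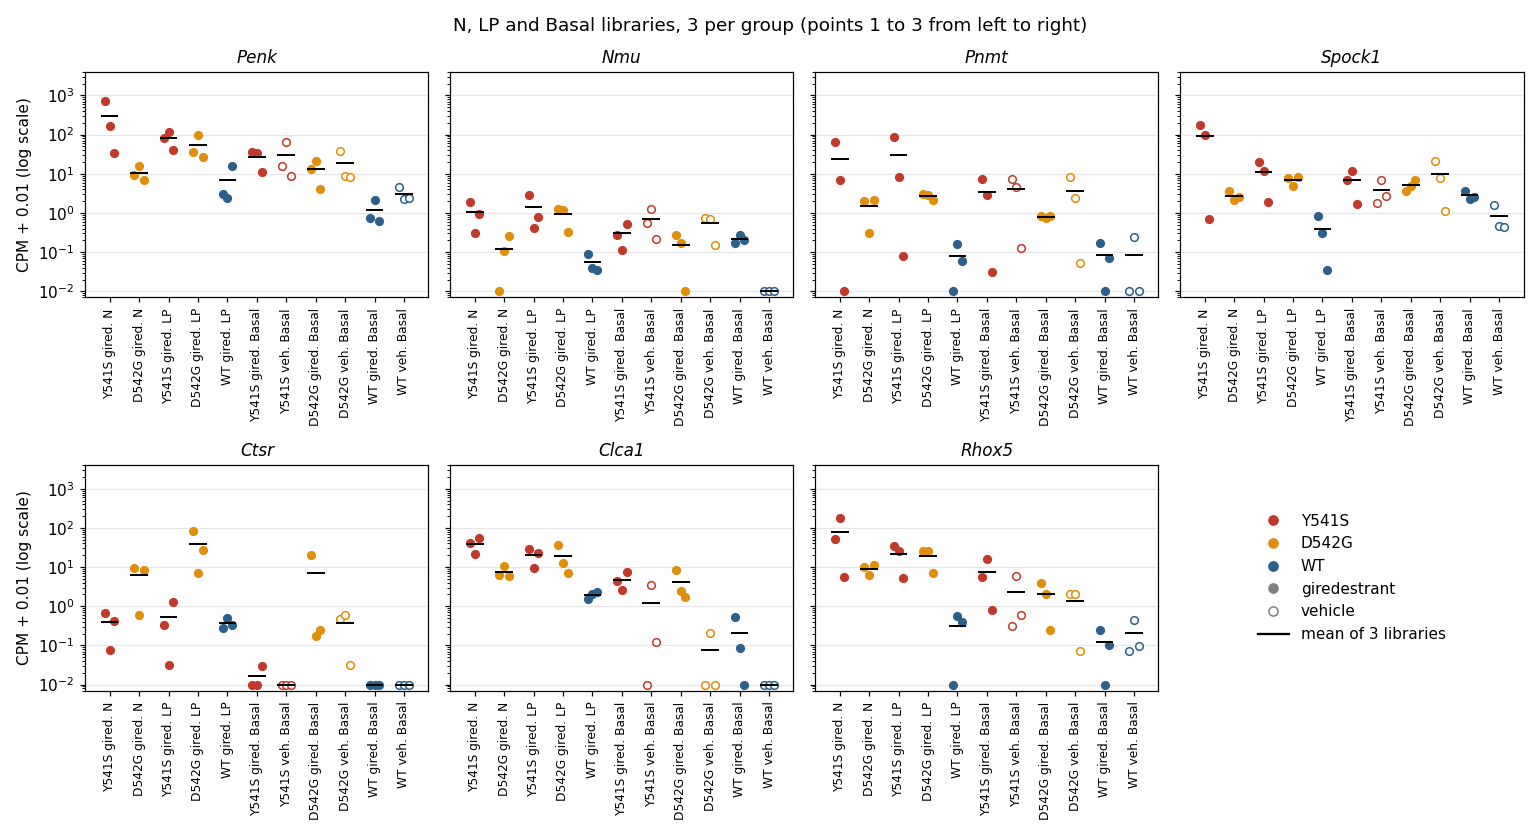
CPM + 0.01 on a log axis in N, LP and Basal cells; filled points are giredestrant and open points vehicle libraries, and bars are means of 3. In LP cells Clca1 lay between 9.29 and 28.3 CPM in Y541S and between 7.01 and 36.5 CPM in D542G, against 1.56 to 2.25 CPM in WT.

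**Figure D3:**
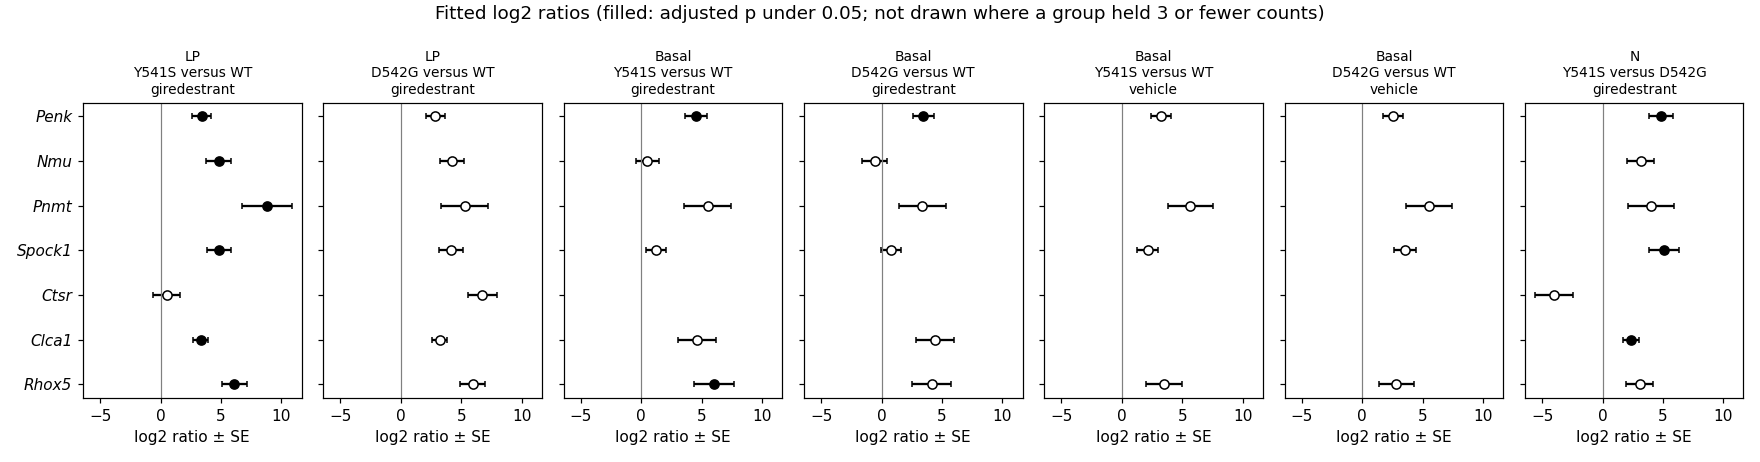
Fitted log2 ratios with their standard errors for the 7 genes in 7 tested comparisons, filled where the edgeR adjusted p was under 0.05 and left out where a group held 3 or fewer counts. The filled points are 6 genes in Y541S LP cells, Penk and Rhox5 in Y541S Basal cells and Penk in D542G Basal cells with giredestrant, and Penk, Spock1 and Clca1 in Y541S against D542G N cells.

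In N cells the 2 mutants differed from each other. Penk was at 719, 165 and 34.1 CPM in Y541S N cells, against 9.06, 15.97 and 6.85 CPM in D542G N cells (log2 ratio 4.83 ± 0.97, edgeR adjusted p = 0.00744), with no overlap, and this call passed under all alternatives. Spock1 was at 179, 101 and 0.695 CPM in Y541S, against 3.53, 2.12 and 2.56 CPM in D542G (5.08 ± 1.25, edgeR adjusted p = 0.0205). Its Y541S library 3 was below every D542G library. Clca1 was at 41.4, 21.6 and 55.2 CPM in Y541S, against 6.403, 10.5 and 5.88 CPM in D542G (2.36 ± 0.68, edgeR adjusted p = 0.0396; SE, n = 3 each), again with no overlap. These 3 of 7 compare with 9.66% of genes called. Penk, Nmu and Clca1 lay above D542G in all Y541S libraries, 3 of 7 against 14.9% of genes. The Spock1 call was lost without any 1 of the D542G libraries or without Y541S library 1 (adjusted p up to 0.0862), and the Clca1 call under 7 of 12 alternatives, including the loss of any library other than Y541S library 2 (adjusted p up to 0.142). Basal markers summed to 2095 to 4420.5 CPM in Y541S N cells and 11431 to 14496 CPM in D542G N cells, fibroblast markers to 161 to 191 CPM in Y541S and 419 to 1090.1 CPM in D542G, and immune markers to 31.1 to 87.7 CPM in Y541S and 166 to 238 CPM in D542G. Mature luminal markers summed to 3093 to 3378 CPM in Y541S and 2413 to 2657 CPM in D542G N cells. None of these markers was at 0 in either group; their part in the result was not tested.

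The others did not pass in that comparison. Rhox5 was at 53.3, 174 and 5.44 CPM in Y541S N cells and 10.1, 6.27 and 11.1 CPM in D542G (edgeR adjusted p = 0.101). Pnmt was at 63.5, 6.98 and 0 CPM in Y541S and 1.96, 0.294 and 2.18 CPM in D542G (edgeR adjusted p = 0.205). Nmu was at 1.87, 0.294 and 0.960 CPM in Y541S and 0, 0.0980 and 0.242 CPM in D542G (edgeR adjusted p = 0.0923). Ctsr leaned the other way, at 0.664, 0.0677 and 0.409 CPM in Y541S and 9.55, 0.588 and 8.38 CPM in D542G (edgeR adjusted p = 0.125).

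Averaged over both mutants, N cells had more Clca1, Rhox5 and Penk than Basal cells. The log2 ratios were 1.98 ± 0.48 for Clca1 (edgeR adjusted p = 0.00333), 2.81 ± 0.82 for Rhox5 (edgeR adjusted p = 0.0105) and 1.61 ± 0.61 for Penk (edgeR adjusted p = 0.0394), 3 of 7 genes where 45.5% of all genes were called, a share so near that nothing is read from it about these genes. Penk was at 719, 165 and 34.1 CPM in N and 36.6, 34.2 and 11.1 CPM in Basal cells of Y541S mice, and at 9.06, 15.97 and 6.85 CPM in N and 13.4, 21.7 and 4.04 CPM in Basal cells of D542G mice. The groups overlapped in both mutants, and the mean of the D542G libraries was lower in N than in Basal cells. For Clca1 and Rhox5 the call passed under all alternatives. For Penk it was lost under 7, and without Y541S N library 1 the log2 ratio was 0.80 (adjusted p = 0.227). Against LP cells edgeR called 0 of 7, where 36.5% of genes were called; at an unadjusted p under 0.05 and by DESeq2 Nmu alone was lower in N. Of the 7 genes, Penk, Nmu, Pnmt and Spock1 were lower in D542G N than in D542G LP cells in all libraries (21.5% of genes), whereas in Y541S 0 of 7 were above (16.4% of genes) and 0 of 7 below (18.1%).

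In some of the mutant groups the replicate number went with the level across populations. With 3 libraries in a group, unrelated numbers would agree in about 1 of 3 pairs. The pairs below reuse the same libraries, and the share over all genes was not taken. In mutant mice, where a group had a unique highest library, the library number that was highest in ML cells was also highest in another population in 33 of 55 gene and population pairs, and the lowest number was shared in 34 of 53. In Y541S mice with giredestrant the lowest number was shared in 17 of 20 pairs and the highest in 11 of 21. Number 3 was there the lowest for Pnmt, Spock1, Penk and Rhox5 in ML, LP, Basal and N cells alike. Pnmt was at 0.0458 CPM in ML, 0.0684 in LP, 0.0206 in Basal and 0 in N libraries numbered 3, while the number 1 libraries were at 201 in ML, 84.9 in LP, 7.57 in Basal and 63.5 CPM in N. Clca1 was instead lowest under number 2 in all 4 populations, with number 3 at 72.4 CPM in ML, 22.5 in LP, 7.54 in Basal and 55.2 in N. Nmu did not share its lowest number, which was 3 in ML cells and 2 in LP, Basal and N cells. In D542G mice with giredestrant, Ctsr was highest under number 1 in all 4 populations, at 9.55 CPM in N, 269 in ML, 83.2 in LP and 20.2 in Basal. In WT mice with giredestrant the highest number was shared in 3 of 13 pairs and the lowest in 5 of 13. In D542G mice with giredestrant the highest was shared in 11 of 21 and the lowest in 8 of 21. The labels do not state what the number stands for.

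**Figure D4:**
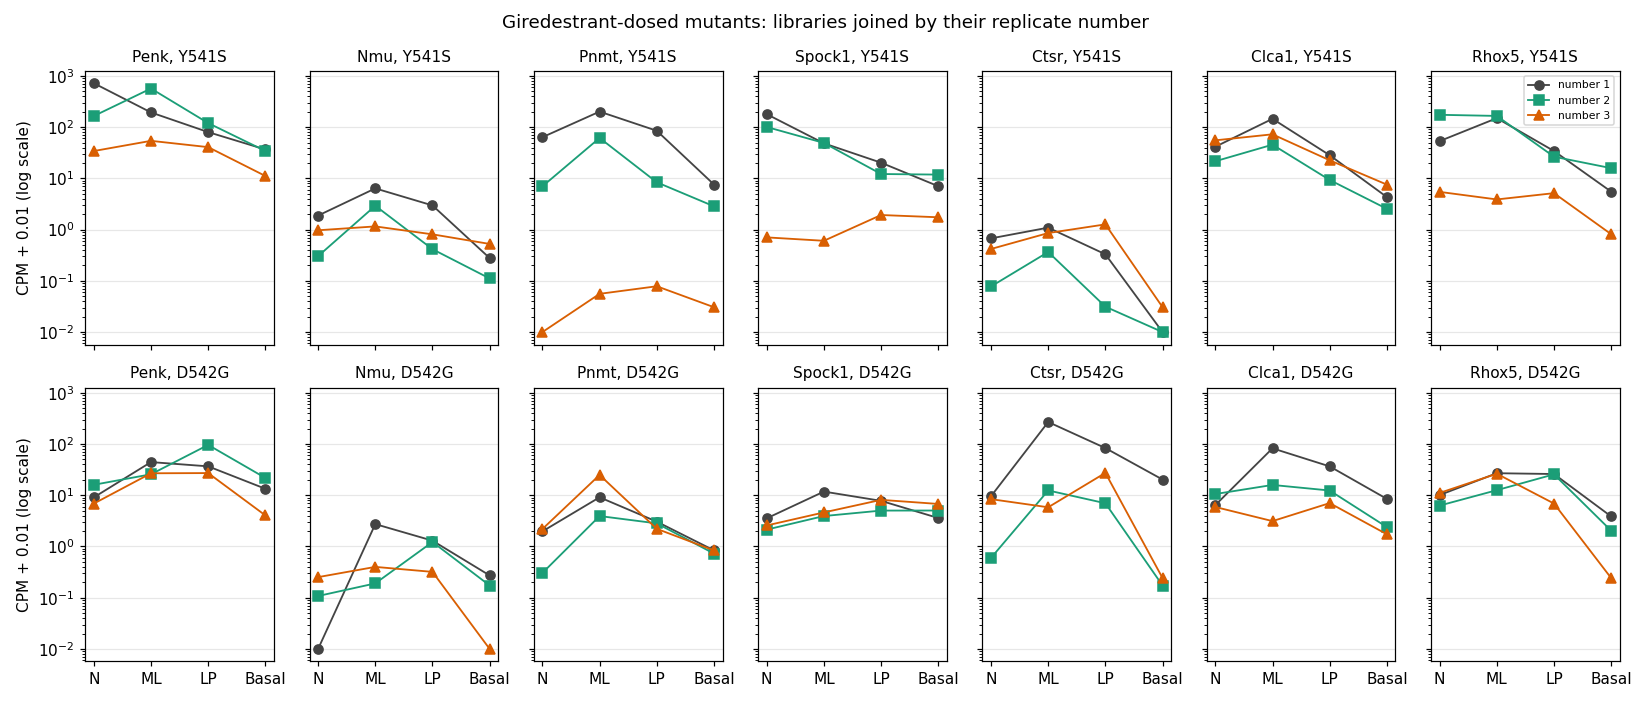
CPM + 0.01 on a log axis in N, ML, LP and Basal cells of Y541S (top) and D542G (bottom) mice with giredestrant, with lines joining libraries that share a replicate number. In Y541S, number 3 lay lowest in all 4 populations for Penk, Pnmt, Spock1 and Rhox5.

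Genes that could make or use the same products were mostly near 0. Of the enzymes before Pnmt, Th, which makes DOPA, and Dbh, which makes noradrenaline, stayed under 1 CPM in every library, with highest group means of 0.524 CPM for Th and 0.223 CPM for Dbh. Ddc, the decarboxylase between them, reached a mean of 1.56 CPM in Y541S LP cells. The vesicular transporter Slc18a1 was at 20.8 ± 13.2 CPM in Y541S ML cells and 6.68 ± 3.35 CPM in D542G ML cells with vehicle, and at 20.5 ± 3.22 CPM in WT ML cells (SD, n = 3 each). Of 12 catecholamine genes other than Pnmt, 10 were tested in LP cells and 0 were called in either mutant against WT by edgeR. Of all genes, 3.54% were called there in Y541S and 0.0302% in D542G, so nothing is read from this count. In Basal cells with giredestrant 2 of 11 fell in Y541S, the tetrahydrobiopterin enzymes Spr and Qdpr, where 14% of all genes were called, and 0 were called in D542G, where 4.97% were.

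Among 7 other opioid genes only the delta receptor Oprd1 reached 1 CPM, at 2.65 ± 1.38 CPM in D542G N cells (SD, n = 3). The precursor Pdyn had no count in any library, and Pomc peaked at a group mean of 0.456 CPM. The neuromedin receptors were near 0, with Nmur2 without a count and Nmur1 at most at a mean of 0.190 CPM. Processing enzymes were present in part. Cpe, the carboxypeptidase that trims peptide ends, was at 445 ± 218 CPM in Y541S N cells and 332 ± 57.5 CPM in D542G N cells, and rose in Basal cells of both mutants against WT with giredestrant, the 1 of 8 processing and granule genes tested that was called in each (14% of all genes in Y541S, 4.97% in D542G). The convertase Pcsk1, needed to cut many precursors, reached a mean of at most 1.14 CPM and Pcsk2 0.686 CPM. Granule proteins Chga and Chgb did not reach a mean of 1 CPM in any group. Scg3, a granule protein that binds chromogranin A, was at 12.4, 5.75 and 2.49 CPM in Y541S LP cells, against 0.912, 0.950 and 0.429 CPM in WT LP cells (log2 ratio 3.14 ± 0.68, SE, n = 3 each, edgeR adjusted p = 0.0394). It was the 1 of 7 processing and granule genes tested that was called in Y541S LP cells, where 3.54% of all genes were. In D542G LP cells 0 were called, where 0.0302% of all genes were. The 6 neuroendocrine and chromaffin markers together summed to at most 2.53 CPM in any library.

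Among family members and neighbours, Ctsj had the pattern closest to that of its relative. Ctsj, a neighbour of Ctsr in the cathepsin cluster on chromosome 13, was at 1.47, 2.58 and 2.57 CPM in D542G ML cells with vehicle, against 0, 0.0288 and 0.0298 CPM in Y541S and 0, 0.0468 and 0.0394 CPM in WT. Its log2 CPM had a Pearson correlation of 0.904 with Ctsr over 51 libraries, the highest of 13768 genes compared. How reads shared between Ctsj and Ctsr were assigned is not given, and their part in this likeness was not tested. Ctsm, Cts3, Cts7 and Cts8 had no count in any library, and the flanking Ctsq and Cts6 stayed under 0.5 CPM. None of 13 other Rhox genes reached 1 CPM; the flanking Rhox2h had no count and Rhox6 reached 0.0575 CPM. Clca4a, 28772 bp from Clca1, reached 0.0574 CPM. Clca2, 37487 bp away on the other side, averaged 2.71 ± 1.01 CPM in D542G ML, 0.600 ± 0.890 CPM in Y541S ML and 0.647 ± 0.392 CPM in WT ML cells with giredestrant, with D542G above WT in all libraries. It was called higher in Y541S LP cells (0.970 ± 0.714 CPM) than in WT LP cells (0.0084 ± 0.0146 CPM; edgeR adjusted p = 0.0451), and reached 24.6 CPM in N cells. Klhl3, which flanks Spock1, was below WT in all libraries of both mutants with giredestrant. It was at 5.07 ± 2.96 CPM in D542G ML, 2.26 ± 0.93 CPM in Y541S ML and 16.4 ± 4.64 CPM in WT ML cells. With vehicle Klhl3 was at 2.21 ± 0.53 CPM in D542G ML, 2.12 ± 0.87 CPM in Y541S ML and 1.92 ± 0.30 CPM in WT ML cells, and both mutants overlapped WT. Pgap3, 496 bp from Pnmt, averaged 52.2 ± 2.47 CPM in D542G ML cells with vehicle, 65.5 ± 3.64 CPM in Y541S and 63.2 ± 0.56 CPM in WT. Tcap, on its other side, averaged 0.363 ± 0.332 CPM in D542G, 0.179 ± 0.134 CPM in Y541S and 0.0156 ± 0.0270 CPM in WT, with D542G above WT in all libraries (SD, n = 3 each). Among 7 other genes of the SPARC family, Sparcl1 and Fstl1 rose in Y541S LP cells against WT, where 3.54% of all genes were called, beside the fibroblast marker levels given above. In D542G LP cells 0 of the family were called, where 0.0302% of all genes were.

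Genes with the most similar profile over the 51 libraries, by Pearson correlation of log2 CPM, were partly shared. Agr2, a secretory pathway disulfide isomerase, and Frmd5 were among the closest 3 for Rhox5 (r = 0.858 for Agr2 and 0.851 for Frmd5) and for Penk (r = 0.782 for Agr2 and 0.823 for Frmd5). The lens crystallin gene Cryaa was near Penk (0.802) and Spock1 (0.772), and Wfdc13 near Spock1 (0.747) and Rhox5 (0.846). The organic anion transporter Slco4c1 was near Nmu (0.818) and Pnmt (0.839). Closest to Clca1 were Crabp2, a retinoic acid binding protein (0.877), the cytochrome Cyp2f2 (0.856) and the amino acid transporter Slc6a14 (0.823). The remaining neighbours in profile were Ly6f (0.853) and Kcnn3 (0.832) for Nmu, Rp1 (0.832) and Hif3a (0.827) for Pnmt, Lgi2 (0.778) for Spock1, and Arg1 (0.783) and Psme1 (0.704) for Ctsr. The libraries share sort, treatment and depth, so these correlations are descriptions.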

How the data were processed

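The authors deposited, for each of 51 libraries, 1 table with gene counts and RPKM values, named so per the file headers. Counts are whole numbers and were used as deposited; the deposited RPKM values, which for 5 of the 7 genes were divided by the whole gene span, entered no result. Reads were placed on GRCm38, per the submitters' processing notes; the sources used here do not give the aligner, the counter, its strand setting or the annotation. Per the labels' protocols, RNA came from sorted mammary cells through a Qiagen micro kit and libraries from Nextera XT. A gene name table gave symbols for 52403 of 52636 Ensembl IDs, and positions come from GENCODE.

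CPM used TMM factors over all libraries (edgeR 4.0.16, R 4.3.3). Tests were edgeR quasi-likelihood fits of the 18 Basal, the 9 LP, and the 18 N, LP and Basal libraries of giredestrant-dosed mutants, after filterByExpr, with Benjamini-Hochberg adjustment over all genes and a threshold of 0.05. All 7 genes passed the filter in all fits. The median log2 ratio over all genes lay between −0.028 and 0.022 in the tested comparisons. A group at 0 was set to a floor of 3 counts over the group. The scripts were tested on simulated counts. Libraries of a group differed by far more than sampling noise (chi-square per degree of freedom 23.7 to 308.5). Alternatives were DESeq2 1.42.0, other scaling, no filter, a replicate block, joint fits and leaving out libraries.

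The 7 genes, the gene lists and the marker lists were chosen with earlier results of these data known. Genes named besides the 7 are Esr1, the nearest protein-coding gene on each side, the 3 genes of most similar profile, and list members reaching a mean of 1 CPM; those named at or near 0 were added after their values were seen.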

Additional observations from a re-analysis of the deposited data

How the results depend on the processing

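Each tested gene ratio taken through the alternatives kept its sign; 70 alternative values lost a call and 14 gained one. Among the ML ratios, which have no test, 10 alternative values turned the sign. For giredestrant over vehicle, leaving out 1 library did so for Nmu in WT (0.058 log2 without vehicle 2), Ctsr in D542G (−0.93 without giredestrant 1), and in Y541S for Penk (1.85 without vehicle 2), Pnmt (−0.99 without giredestrant 1 and −0.016 without vehicle 3) and Spock1 (1.26 without vehicle 2 and 0.084 without giredestrant 3). Ctsr in Y541S over WT with vehicle, where the groups overlap, turned to 0.10 with plain count totals, 0.007 without Y541S vehicle 1 and 0.29 without WT vehicle 2. The count of all genes called was far less stable. In Basal cells with vehicle it was 10 for D542G against WT, but 50 with no low count filter, 4 with a replicate block, 243 by DESeq2, 21 in 1 fit of all libraries other than ML, and 0 to 18 on leaving out a library. For Y541S it was 27, but 82 with RLE size factors, 158 with no filter, 14 with the block, 650 by DESeq2, 49 in the joint fit and 0 to 100 on leaving out a library. With giredestrant it was 853 in D542G (DESeq2 1740, joint fit 561, leave-one-out 166 to 840) and 2397 in Y541S (leave-one-out 1189 to 2407). For giredestrant against vehicle it was 1901 in WT (joint fit 1140, leave-one-out 493 to 2429), 4849 in D542G (2135 to 4776) and 2594 in Y541S (joint fit 1715, leave-one-out 1037 to 2076). The difference of that effect from WT called 108 genes in D542G (no filter 223, DESeq2 876, joint fit 37, leave-one-out 3 to 609) and 766 in Y541S (DESeq2 1539, joint fit 427, leave-one-out 278 to 1095). In LP cells it was 5 for D542G (no filter 107, block 0, DESeq2 771, joint fit 1123, leave-one-out 0 to 42) and 587 for Y541S (block 278, DESeq2 1965, joint fit 2490, leave-one-out 0 to 979). N against LP called 6542 (within Y541S alone 4069), and N of Y541S against D542G called 1731 (DESeq2 2745, leave-one-out 493 to 1914). Of the 7 genes, the count called was 1 in D542G Basal cells with giredestrant (2 with no filter and by DESeq2, leave-one-out 0 to 2), 2 in Y541S (4 with no filter, leave-one-out 1 to 3), 1 for giredestrant in WT (0 with the block and in the joint fit, leave-one-out 0 to 0), 1 for giredestrant in D542G (2 with no filter, leave-one-out 0 to 2), 0 in D542G LP cells (4 with no filter, 6 by DESeq2, 4 in the joint fit), 6 in Y541S LP cells (4 with the block, leave-one-out 0 to 6), 3 for N against Basal (5 with a block within genotype, leave-one-out 2 to 4) and 3 for Y541S against D542G N cells (5 by DESeq2, leave-one-out 1 to 3). The replicate numbers did not meet the rule for pairs in any tested comparison as a whole: correlations of same-numbered deviations ran below 0.1 for at least 1 number except in Y541S N against LP (0.251 to 0.426) and N against Basal (0.351 to 0.450). Same-numbered ML and LP or Basal libraries of a group correlated at 0.109 to 0.585. Fits within a genotype and the block within genotype were added after seeing the data. Counts were lowest for Nmu, Ctsr and Clca1, which held 0 or 1 count in some WT groups. Ctsr also held 0 counts in Y541S Basal cells with vehicle and 1 with giredestrant. The cause of the differences between settings was not tested.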
